A study of Mus musculus with 13 samples.

Results

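Proteins that fail to fold in the endoplasmic reticulum (ER) are handed over to ER-associated degradation (ERAD), and 10 genes of this machinery were followed here by ribosome footprint profiling: Herpud1, Sel1l, Syvn1, Derl1, Derl2, Derl3, Edem1, Edem2, Os9 and Vcp. They were picked by symbol from the 22406 gene symbols measured. All 10 had a mean of at least 2 TPM (footprints scaled by coding length and library depth) over the MEF libraries. In NIH3T3 cells 9 did, since Derl3 was listed at 0, 0 and 0.42 TPM there. The cells were mouse embryonic fibroblasts (MEFs), either PERK WT or PERK −/−, the latter knocked out for the ER stress kinase PERK that Eif2ak3 encodes. Both were left untreated (control) or given 1 μM thapsigargin (Tg), which empties the calcium store of the ER, with harvests at 1, 2, 5 and 8 h. NIH3T3 cells, an established mouse fibroblast line, were left untreated or harvested at 2 and 7 h of 0.2 μM Tg. There was 1 library for each of the 13 conditions, no second line of either genotype was labelled, and the cells were trypsinized and frozen with no cycloheximide at any step.

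In ERAD, lectins and chaperones of the ER lumen pick out misfolded glycoproteins, a membrane complex around a ubiquitin ligase passes them to the cytosol and marks them, and the ATPase p97 pulls them out for the proteasome. The best studied complex is built on the ligase HRD1 (Syvn1) and its partner SEL1L. Many of its genes are known targets of the unfolded protein response, whose arms run through PERK and ATF4, IRE1 and XBP1, and ATF6.

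The libraries held between 2525029 (WT, 2 h) and 14799515 (PERK −/−, 2 h) expected counts, so 3 counts stood for 1.19 and 0.203 CPM (counts scaled by depth alone) at these ends. Eif2ak3 itself was at 14.4 to 33.3 CPM in the WT and 7.64 to 19.1 CPM in the PERK −/− libraries, and lower in the PERK −/− library at each matched time, although the labels do not say which stretch of the gene was deleted. Of 8 fibroblast markers, 8 were above 4 TPM in every library of both genotypes and 6 in every NIH3T3 library. The summed TPM of 3 epithelial markers stayed at or under 17.7, of 2 endothelial markers at or under 3.07, and of 3 leukocyte markers at or under 48.5, the last in NIH3T3 cells. Footprints count ribosomes on a coding sequence, so more mRNA and more translation per mRNA cannot be told apart, and TPM is a share of a library, so every change is relative to the other genes. For the changes below, TPM values under 4 were set to 4, and each Tg library was divided by the control of its own genotype or line, which all comparisons of that genotype or line share. A gene is called higher or lower from 2-fold on. The 95% intervals are exact conditional intervals of a gene's expected counts relative to the library totals, and cover counting error only. They say nothing about the spread between cultures, which 1 library per condition leaves unknown.

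In WT MEFs 5 of the 10 members rose by 2-fold or more at some time, and the other 5 did not. Herpud1 and Syvn1 were called higher at 1 h, which is 2 of 10 members where 4.33% of the 10432 expressed genes were, and the same pair at 2 h, where 5.66% were. At 5 h Sel1l, Derl3 and Edem1 had joined them, giving 5 of 10 against 5.86%, and at 8 h the same 5 were called against 6.45%. The call of Derl3 was lost on the scale of counts, where its log2 change came to 0.74 to 0.88 at 5 and 8 h with CPM, TMM and DESeq2 factors and a floor of 4, which left 4 members called at 8 h. No member was called lower in WT MEFs at 1, 2, 5 or 8 h, where 2.29%, 4.01%, 3.55% and 3.87% of expressed genes were. The median log2 change of the members was 0.02, 0.24, 1.24 and 1.21 in order of time, and 0.14 and 0.46 at 1 and 2 h with Derl3 taken at its lower bound, while that of all expressed genes was 0.00, 0.00, 0.00 and 0.01.

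Fewer members passed 2-fold in PERK −/− MEFs. At 8 h this held for the 2-fold and 3-fold thresholds and not for 1.5-fold. A rise of 1.5-fold was reached at 8 h by 7 of 10 members in either genotype, against 17.8% (WT) and 12.5% (PERK −/−) of expressed genes. Sel1l was among them in WT only and Derl2 in PERK −/− MEFs only. At 3-fold and 8 h the numbers were 4 (against 1.61%) and 0 (0.479%). At 1.5-fold and 5 h they were 7 (against 16.7%) and 4 (10.6%). At 1 h 0 of 10 were called higher, as were 0.719% of expressed genes, and only Edem2 was called lower, beside 3.38% of expressed genes. At 2 h Herpud1 alone was called higher (1 of 10, against 0.623%) and 0 were lower (5.78%). At 5 h Herpud1, Syvn1 and Derl3 were called higher (3 of 10, against 3.26%), and at 8 h Herpud1 and Syvn1 (2 of 10, against 3.28%), with 0 lower at either time (4.77% and 2.73%). The medians of the members were −0.29 and −0.24 at 1 and 2 h, beside −0.06 and −0.11 for all expressed genes, and 0.52 and 0.72 at 5 and 8 h, beside 0.00 and 0.04. Between 2 and 5 h all 10 members had a count interval above 0, where 40.5% of expressed genes did, and their median log2 change over this step was 0.78 beside 0.09. Vcp and Herpud1 moved least in it, by 0.17 and 0.26.

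Of the 9 members measured in NIH3T3 cells, Herpud1 was called higher at 2 h (1 of 9, against 5.76% of 10117 expressed genes), and Herpud1, Sel1l and Syvn1 at 7 h (3 of 9, against 7.01%). None was called lower at 2 or 7 h, where 3.76% and 8.06% of expressed genes were. The members' median was 0.03 at 2 h, when that of expressed genes was −0.13, and 0.61 at 7 h, when it was 0.00.

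**Figure D1:**
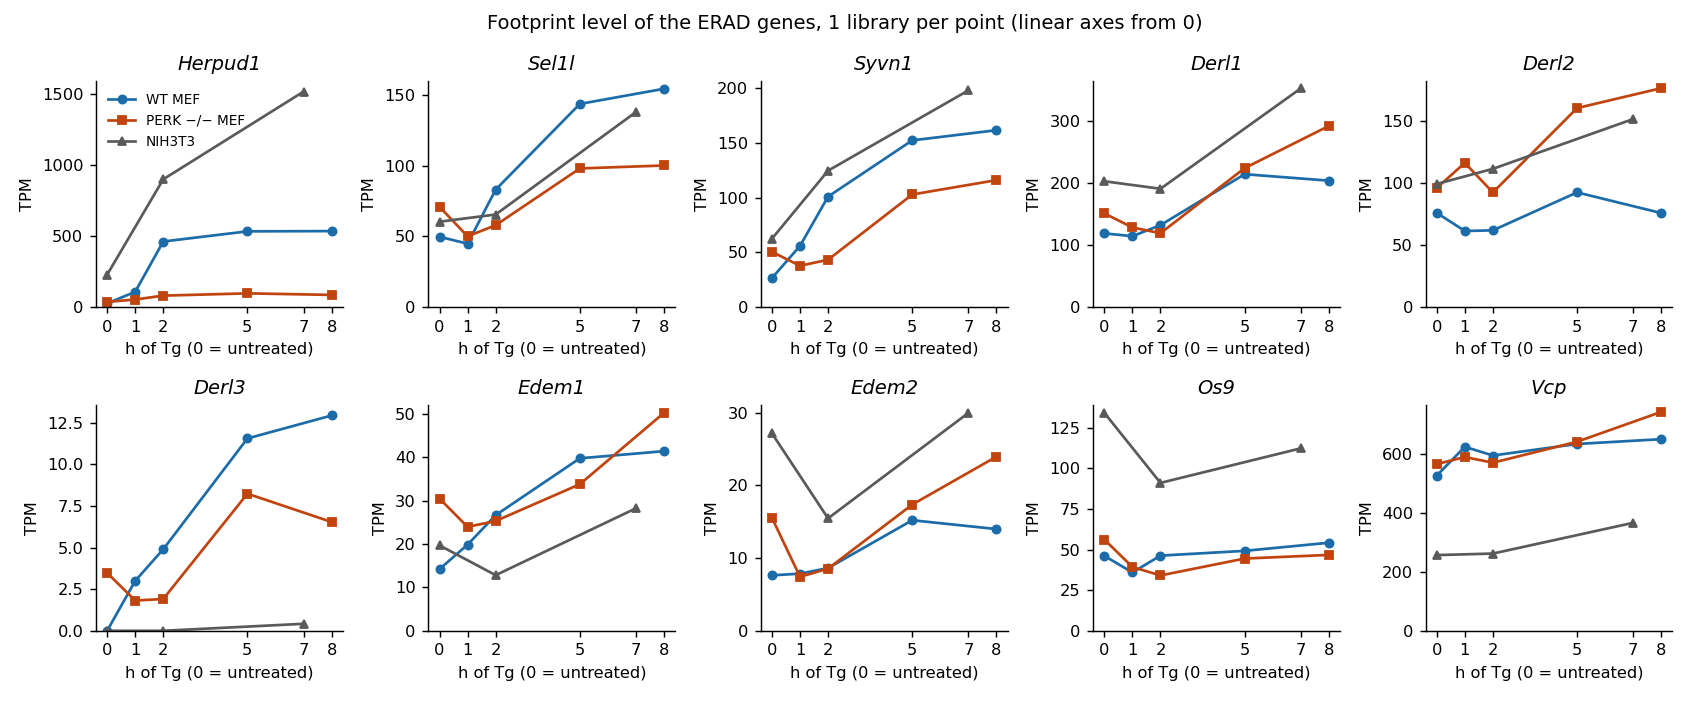
Footprint level (TPM, linear axes that start at 0) of the 10 ERAD genes against hours of Tg, with 0 h for the untreated library, in WT MEFs (blue circles), PERK −/− MEFs (orange squares) and NIH3T3 cells (grey triangles), where each point is 1 library. Herpud1 reached 535 TPM in WT and at most 96.7 TPM in PERK −/− MEFs, while Vcp stayed between 526 and 741 TPM in all MEF libraries.

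Herpud1 (chr8:94386438-94395377 of GRCm38, the assembly also named mm10, + strand) encodes an ER membrane protein with a ubiquitin-like domain that helps to organize the HRD1 complex. Untreated WT MEFs had 25.6 TPM, and those given Tg had 108, 462, 534 and 535 TPM in order of time. The PERK −/− values were 36.5, 53.4, 80.8, 96.7 and 85.8 in the same order, and NIH3T3 cells went from 228 to 900.5 and then 1518. All 4 treated WT libraries were above all 5 PERK −/− libraries, although the PERK −/− control was above the WT control. In WT MEFs the gene rose 4.21-fold at 1 h and 18.0-fold at 2 h, by which time 85.6% of the 8 h gain in TPM was in place. At 8 h, when it stood 20.9-fold above its control, 4 of the 10432 expressed genes had risen more. The PERK −/− rise was 2.21-fold at 2 h, 2.65-fold at 5 h and 2.35-fold at 8 h, and 37 expressed genes had risen more at 2 h. From 5 to 8 h it was level in WT MEFs (log2 count change −0.01, 95% interval −0.07 to 0.04) and −0.23 in PERK −/− MEFs (−0.36 to −0.10). The NIH3T3 rise was 3.95-fold at 2 h and 6.65-fold at 7 h.

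Syvn1 (chr19:6046576-6053712, + strand) encodes HRD1, the membrane ubiquitin ligase of the complex. It had 26.6 TPM untreated and then 55.9, 101, 152 and 162 TPM in WT MEFs. PERK −/− MEFs had 50.5 TPM untreated and then 37.7, 43.3, 103 and 116. The WT series climbed at every step, whereas the PERK −/− libraries of 1 and 2 h lay below their control, that of 2 h not once a GC trend was taken out (0.18 on the log2 scale), and those of 5 and 8 h lay above it. The WT rise was 2.11-fold at 1 h and 6.09-fold at 8 h, with a log2 count change of 2.61 (2.48 to 2.73) at 8 h. The PERK −/− rise was 2.04-fold at 5 h and 2.30-fold at 8 h, with 1.19 (1.06 to 1.33) for the counts at 8 h. In NIH3T3 cells it went from 62.5 TPM to 125 at 2 h and 198 at 7 h. The first of these was 1.995-fold, just under the threshold, and the second 3.17-fold.

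Sel1l (chr12:91806043-91849157, − strand) encodes the adaptor that holds HRD1 and links it to the lumenal lectins. Its TPM was 49.8, 44.9, 83.1, 144 and 155 in WT and 71.0, 50.1, 58.0, 98.1 and 100.2 in PERK −/− MEFs, and 60.4, 65.5 and 138 in NIH3T3 cells. Unlike its partner Syvn1, it was within counting error of the control at 1 h in WT MEFs (log2 count change −0.13, −0.30 to 0.03) and was first called at 5 h, at 2.89-fold. The last time points stood at 3.11-fold (WT), 1.41-fold (PERK −/−) and 2.28-fold (NIH3T3). The PERK −/− values at 1 and 2 h were below the control, with count changes of −0.45 (−0.57 to −0.34) and −0.20 (−0.31 to −0.10).

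The derlins are multi-spanning ER membrane proteins of the channel through which ERAD substrates leave, and the 3 of them did not move alike. Derl1 (chr15:57869502-57892448, − strand) had 119, 114, 132, 214 and 204 TPM in WT MEFs, 151, 129, 119, 224 and 292 in PERK −/− MEFs, and 203, 191 and 353 in NIH3T3 cells. In all 3 series it was near or below the control early and above it late, by 1.72-fold (WT, 8 h), 1.93-fold (PERK −/−, 8 h) and 1.74-fold (NIH3T3, 7 h), so it was never called. Derl2 (chr11:71007164-71019841, − strand) had 75.9, 61.3, 61.8, 92.4 and 75.8 TPM in WT and 95.9, 116, 92.3, 160.3 and 176 in PERK −/− MEFs. Its 5 WT values were all below its 5 PERK −/− values except that the WT value at 5 h was as high as the PERK −/− value at 2 h. The 8 h library was 0.998-fold its control in WT and 1.84-fold in PERK −/− MEFs, while NIH3T3 cells at 7 h had 1.53-fold, from 99.2 TPM to 151.

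Derl3 (chr10:75893413-75895941, + strand), the derlin best known from secretory cells, was the member with the fewest footprints. It had 0, 5, 8, 38 and 82 counts in WT MEFs and 13, 8, 17, 30 and 27 in PERK −/− MEFs, and 0, 0 and 1 in NIH3T3 cells. Per depth, the 8 h libraries stood at 7.34 CPM in WT and 3.63 CPM in PERK −/− MEFs, so the genotype with no count untreated ended higher. The WT control, with 0 counts, allows up to 3, or 0.251 CPM. The treated WT libraries stood at 5.52, 12.6, 26.9 and 29.2 times that limit in order of time. With the counting error of the treated library included, the lower 95% limits of the fold were 3.03, 8.08, 20.9 and 23.2. In TPM it went from 0 to 12.9 at 8 h in WT MEFs and from 3.48 to 8.24 at 5 h and 6.54 at 8 h in PERK −/− MEFs. The 2.06-fold of PERK −/− MEFs at 5 h rests on 13 and 30 counts, and its count interval of −0.03 to 2.01 includes 0.

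**Figure D2:**
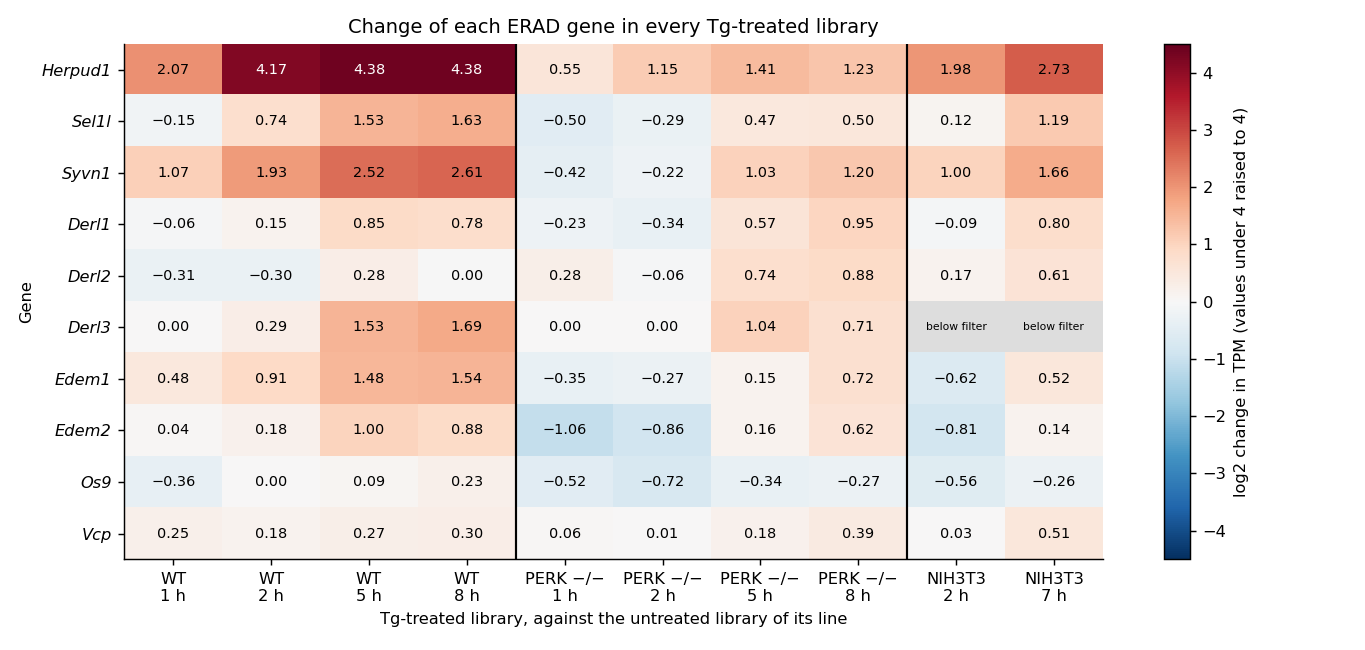
Log2 change in TPM (colour and printed number, values under 4 TPM set to 4) of the 10 ERAD genes (rows) in each of the 10 Tg libraries against the untreated library of its line (columns, with black lines between WT MEFs, PERK −/− MEFs and NIH3T3 cells). Herpud1, at 4.17 to 4.38 from 2 h on in WT MEFs, is the darkest row, Os9 and Vcp are pale throughout, and grey marks Derl3 in NIH3T3 cells, which was below the expression limit.

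The mannosidase-like lectins of the EDEM family trim and mark misfolded glycoproteins, and OS-9 reads the mark and brings them to SEL1L. Edem1 (chr6:108828641-108859356, + strand) had 14.2, 19.9, 26.7, 39.8 and 41.4 TPM in WT MEFs, 30.5, 24.0, 25.3, 33.8 and 50.3 in PERK −/− MEFs, and 19.7, 12.8 and 28.3 in NIH3T3 cells. The WT libraries of 5 h (2.80-fold) and 8 h (2.91-fold) were called, and the last PERK −/− and NIH3T3 libraries had 1.65-fold and 1.43-fold. The smaller PERK −/− change came with a higher control, and the levels reached at 8 h were within counting error of each other (PERK −/− against WT 0.05 on the log2 scale, −0.09 to 0.20). Edem2 (chr2:155701677-155729475, − strand) had 7.63, 7.86, 8.63, 15.2 and 14.0 TPM in WT and 15.5, 7.43, 8.55, 17.4 and 24.0 in PERK −/− MEFs, while NIH3T3 cells had 27.2 TPM untreated, 15.5 at 2 h and 1.10 times the control at 7 h. Its 1.99-fold at 5 h in WT MEFs lay just below the threshold. Its fall to 0.478-fold at 1 h in PERK −/− MEFs was the only lower call among the members, and it was made in TPM only, since the counts changed by −0.79 (−1.13 to −0.45) on the log2 scale.

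Os9 (chr10:127095650-127121131, − strand) was the only member that was lower than its control in every treated library of PERK −/− MEFs and NIH3T3 cells. Its TPM was 46.1, 35.9, 46.3, 49.2 and 54.2 in WT MEFs, 56.2, 39.3, 34.1, 44.5 and 46.7 in PERK −/− MEFs, and 134, 91.0 and 112 in NIH3T3 cells. No library was 2-fold from its control, and the lowest ratio was 0.606 at 2 h in PERK −/− MEFs. At 8 h the log2 count change was 0.26 in WT (0.14 to 0.38) and −0.28 in PERK −/− MEFs (−0.44 to −0.13). The WT value lost its sign, at −0.03 in TPM, once a trend of the changes on GC content was taken out.

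Vcp (chr4:42979963-43000507, − strand) encodes p97, the ATPase that extracts substrates for many pathways besides ERAD. It was the most abundant member in the 3 control libraries, at 526, 564 and 256 TPM in WT, PERK −/− and NIH3T3 cells. Its range was 526 to 649 in WT, 564 to 741 in PERK −/− MEFs and 256 to 366 in NIH3T3 cells, and was at most 1.43-fold above its control. Its counts, from 2008 to 22363 a library, gave narrow intervals, so that the change at 8 h was 0.31 in WT (0.27 to 0.34) and 0.39 in PERK −/− MEFs (0.35 to 0.42). Without Vcp, the summed TPM of the other 9 members went from 365 to 1254 in WT MEFs at 8 h (3.44-fold), from 511 to 898 in PERK −/− MEFs (1.76-fold), and from 834 to 2529 in NIH3T3 cells at 7 h (3.03-fold). Herpud1 made up 42.7% of that sum in WT and 9.56% in PERK −/− MEFs at 8 h, beside 7.03% and 7.14% in the controls.

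To show which promoters carry the letters of the ER stress elements, to which ATF6 and XBP1 are known to bind, the 250 bases before the RefSeq start site (GRCm38.p6) are printed for the 3 members in which ERSE or ERSE-II was found, 5′ to 3′ on the strand of the gene, with motif matches in capitals. Positions count from the start site.
Herpud1, chr8:94386179-94386428, +: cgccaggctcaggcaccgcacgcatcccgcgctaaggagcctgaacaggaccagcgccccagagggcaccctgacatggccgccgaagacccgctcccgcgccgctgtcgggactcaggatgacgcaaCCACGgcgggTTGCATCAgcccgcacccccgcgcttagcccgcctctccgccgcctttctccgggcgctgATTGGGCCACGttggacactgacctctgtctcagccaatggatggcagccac
Syvn1, chr19:6046326-6046575, +: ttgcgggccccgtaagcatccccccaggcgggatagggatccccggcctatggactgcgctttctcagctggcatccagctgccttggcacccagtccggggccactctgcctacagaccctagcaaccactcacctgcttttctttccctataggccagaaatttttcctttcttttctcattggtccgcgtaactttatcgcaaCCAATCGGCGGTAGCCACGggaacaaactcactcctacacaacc
Derl3, chr10:75893148-75893397, +: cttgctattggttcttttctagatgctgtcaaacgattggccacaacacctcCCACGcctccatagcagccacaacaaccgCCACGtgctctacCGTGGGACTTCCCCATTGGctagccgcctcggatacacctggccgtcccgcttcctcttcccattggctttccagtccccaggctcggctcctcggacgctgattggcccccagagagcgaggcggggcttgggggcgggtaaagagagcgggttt

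The ER stress element ERSE was searched as CCAAT and CCACG with 9 bases between them, ERSE-II as ATTGG and CCACG with 1 base between them, the XBP1-type element as TGACGTGG, the ATF4 site as TGATGNAA and the CCACG core alone, on both strands, in the 300 bases from 250 before to 50 after each start. RefSeq gave such a window for 9 members. ERSE stood in Syvn1 (−44 to −26) and, on the other strand, in Derl3 (−156 to −138), and in 0.119% of 32851 promoters. Herpud1 held ERSE-II (−52 to −42), found in 0.0365% of promoters, and on the other strand an ATF4 site (−112 to −105), found in 3.97%. Of expressed genes with at least 1 window, 0.186% held ERSE and 0.0994% ERSE-II. The 3 members printed are among the 5 called in WT MEFs at 5 and 8 h, Derl3 on the TPM scale only. Sel1l and Edem1, also called there, held neither ERSE nor ERSE-II. Whether the matches bear on the changes was not tested. Vcp, which moved little, held TGACGTGG (−114 to −107), found in 0.676% of promoters, overlapping a CCACG on the other strand. The core CCACG, part of both ERSE forms and of the XBP1-type element, was in all 9 members, in 32.8% of promoters, and in 54.3% of expressed genes with at least 1 window. A match is a description of the letters and not of factor binding, which was not measured.

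The difference between genotypes was taken as the log2 count change of PERK −/− MEFs minus that of WT MEFs at the same time, for the 9 members with counts in both controls. Intervals lay below 0, a smaller rise or larger fall in PERK −/− MEFs, for 6, 8, 7 and 5 of 9 members at 1, 2, 5 and 8 h, where 32.4%, 34.9%, 32.6% and 30.2% of the expressed genes with counts in all 4 libraries did. They lay above 0 for Derl2 at 1, 5 and 8 h and for Vcp at 8 h, that is for 1, 0, 1 and 2 of 9 members where 21.1%, 21.8%, 25.7% and 26.9% of genes did. Herpud1 had the largest difference at 8 h, −3.01 (−3.25 to −2.77), followed by Syvn1 at −1.41 (−1.60 to −1.23), Sel1l at −1.15 (−1.29 to −1.01) and Edem1 at −0.94 (−1.20 to −0.68). The intervals of Syvn1 and Sel1l overlapped, as did those of Sel1l and Edem1. Derl2 stood at the other end with 0.75 (0.49 to 1.01), and Derl1 at 0.16 (−0.01 to 0.34) could not be told from 0 at this depth. The median of the members in TPM was −0.27, −0.88, −0.66 and −0.66 in order of time, beside −0.09, −0.19, −0.04 and 0.00 for all expressed genes. Members above their control in WT and below it in PERK −/− MEFs, with both intervals off 0, were Syvn1 and Edem1 at 1 h (2 of 10, against 9.07%), Sel1l, Syvn1 and Edem1 at 2 h (3 of 10, against 11.3%), none at 5 h (7.27%) and Os9 at 8 h (1 of 10, against 5.28%).

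Because all PERK −/− changes share 1 control, the treated libraries were also compared directly. At 8 h Herpud1 was lower in PERK −/− than in WT MEFs by −2.62 (−2.73 to −2.52) on the log2 scale of counts, Sel1l by −0.65 (−0.73 to −0.57) and Syvn1 by −0.49 (−0.58 to −0.41). In contrast, Derl2 was higher by 1.08 (0.91 to 1.25), Edem2 by 0.76 (0.52 to 1.00) and Derl1 by 0.51 (0.40 to 0.61). Derl3 was lower by −1.02 (−1.70 to −0.37) and Os9 by −0.22 (−0.36 to −0.08), and Vcp was higher by 0.18 (0.15 to 0.21). In all, 5 of 10 members were lower in the PERK −/− library by an interval off 0, as were 29.9% of expressed genes, and 4 were higher, as were 41.3%. Edem1 was within counting error.

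**Figure D3:**
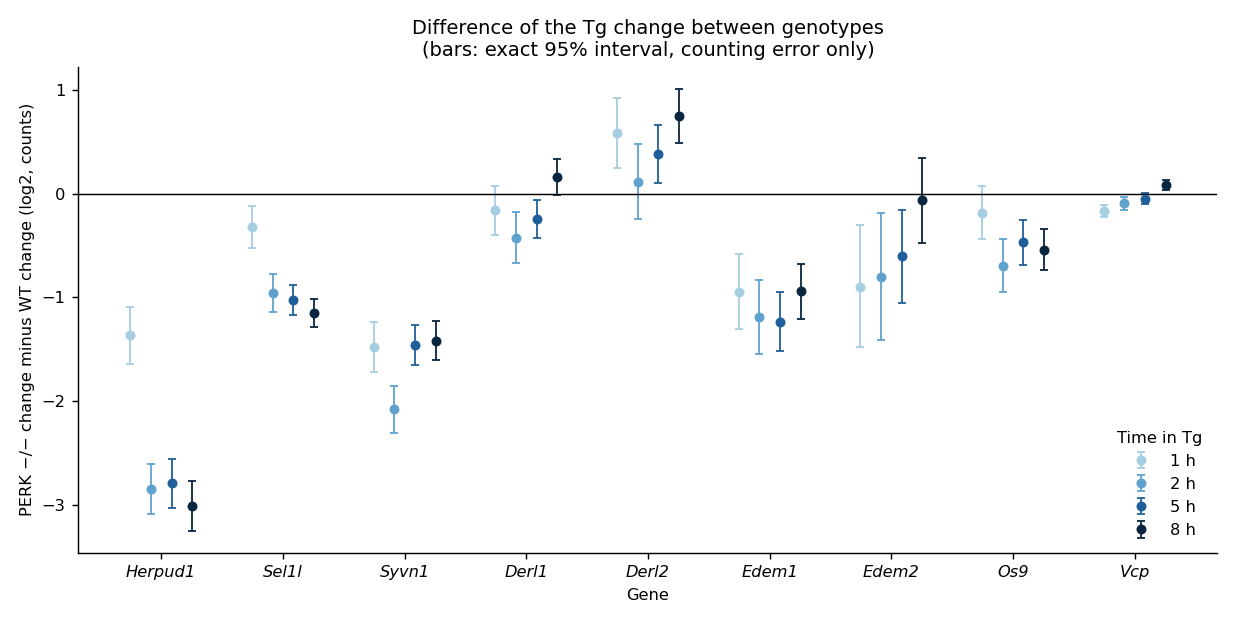
PERK −/− minus WT difference of the log2 count change (y axis) for the 9 ERAD genes with counts in both controls (x axis) at 1, 2, 5 and 8 h of Tg (light to dark points), with exact 95% intervals that cover counting error only. Herpud1 lies between −3.01 and −1.37, and Syvn1, Sel1l and Edem1 are below 0 with their whole intervals at all 4 times. Derl2 is above 0 at each, with an interval that includes 0 at 2 h.

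The untreated libraries already differed. Edem1 (2.14-fold) and Edem2 (2.04-fold) were called higher in the PERK −/− than in the WT control, which is 2 of 10 members where 6.04% of expressed genes were, and 0 were lower, where 1.97% were. Syvn1 was 1.90-fold, with 0.92 (0.76 to 1.09) for its counts, and Herpud1 and Sel1l were 1.42 and 1.43-fold. In all, 9 of 10 members were above the WT control on this scale, as were 57.2% of expressed genes, with a median of 0.43 (0.51 with Derl3 at its bound) beside 0.08. Since the PERK −/− control is the divisor of every PERK −/− change, a higher control makes each of them smaller.

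Ratios of members within a library do not depend on how libraries are scaled, but a trend on GC content can shift them. The TPM ratio of Sel1l to Syvn1, the adaptor to its ligase, started at 1.87 in WT MEFs and then stood at 0.803, 0.824, 0.944 and 0.956 at 1, 2, 5 and 8 h. PERK −/− MEFs started at 1.41, held 1.33 and 1.34 at 1 and 2 h, and came to 0.954 and 0.864 later. The shift was thus present at 1 h in WT MEFs (log2 change of the count ratio −1.22, −1.47 to −0.97), while in PERK −/− MEFs the interval at 1 h included 0 (−0.07, −0.26 to 0.13) and that at 5 h did not (−0.57, −0.74 to −0.40). With a GC trend removed, Sel1l and Syvn1 changed by −0.43 and −0.14 (log2) at 1 h in PERK −/− MEFs, and by −0.19 and 0.18 at 2 h. The early PERK −/− ratio was thus level only without that step. In WT MEFs at 1 h they changed by −0.14 and 0.95 with the trend removed. NIH3T3 cells went from 0.967 to 0.526 at 2 h and 0.697 at 7 h. At the last time point the ratio had come to 0.956, 0.864 and 0.697 in the 3 series.

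The ratio of Derl1 to Syvn1 fell from 4.48 to 1.26 in WT MEFs at 8 h and from 3.25 to 1.78 in NIH3T3 cells at 7 h, and went from 3.00 to 2.52 in PERK −/− MEFs at 8 h. That of Herpud1 to Syvn1 peaked at 2 h in both genotypes. WT MEFs went from 0.965 to 4.58 and on to 3.31 at 8 h, and PERK −/− MEFs from 0.723 to 1.87 and on to 0.740. By 8 h the PERK −/− ratio was back within counting error of its control (0.09, −0.15 to 0.32), as Syvn1 stood 2.30-fold and Herpud1 2.35-fold above their controls. The ratio of Os9 to Sel1l fell in all 3 series, from 0.927 to 0.351 (WT), 0.792 to 0.466 (PERK −/−) and 2.22 to 0.814 (NIH3T3).

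**Figure D4:**
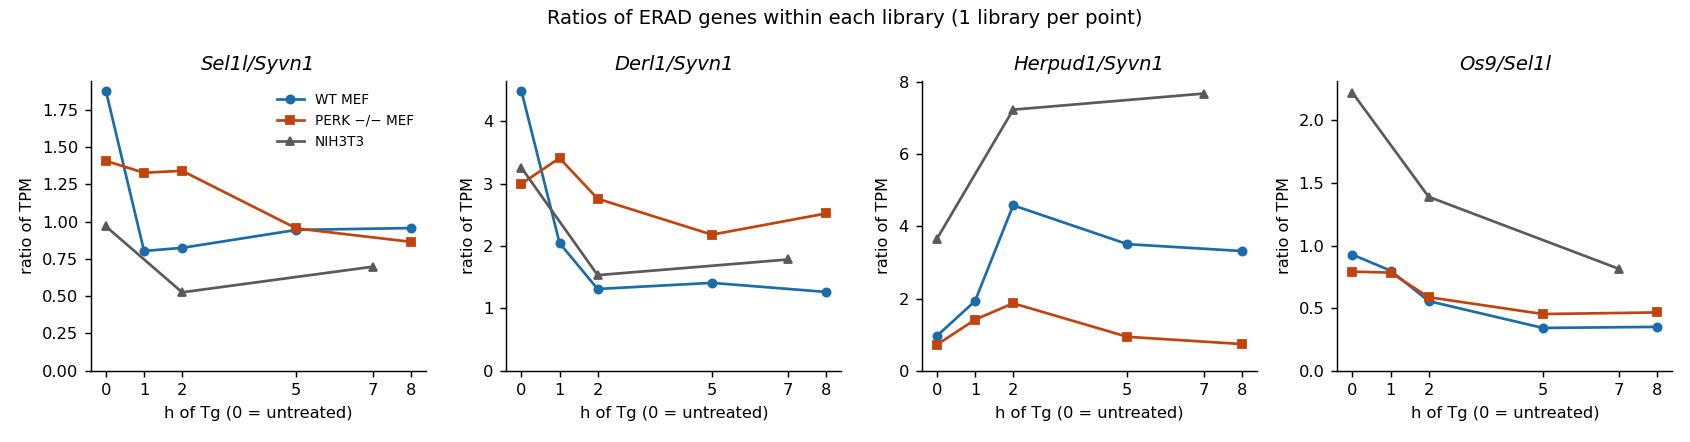
Ratio of the TPM of 2 ERAD genes within each library (linear axes that start at 0) against hours of Tg, with 0 h for the untreated library, in WT MEFs (blue circles), PERK −/− MEFs (orange squares) and NIH3T3 cells (grey triangles), 1 library per point. Sel1l over Syvn1 dropped from 1.87 to 0.803 within 1 h in WT MEFs and stayed at 1.33 and 1.34 until 2 h in PERK −/− MEFs. No GC trend was removed.

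The wider ERAD machinery did not move as a block. Of 54 other ERAD genes listed, 52 were expressed in MEFs. At 8 h in WT MEFs 7 were called higher (Rnf5, Selenok, Tmub2, Rhbdd1, Sdf2l1, Dnajb9 and Creb3), where 6.45% of all expressed genes were, and Dnajc10 lower, where 3.87% were, with a median log2 change of 0.01. In PERK −/− MEFs 5 were called higher (against 3.28%) and 2 lower (against 2.73%) at 8 h, with a median of 0.31. The lower calls are thus near or below the share of all genes. Sdf2l1, a partner of the ER chaperone DNAJB11, changed by 3.55 in WT and 1.98 in PERK −/− MEFs. Selenok, a selenoprotein of the ER membrane, changed by 1.99 and 1.02. Dnajb9, a lumenal J protein, rose at every time in both genotypes, by 1.99 in WT and 2.17 in PERK −/− MEFs at 8 h with overlapping count intervals (1.73 to 2.26 and 1.89 to 2.45). Dnajc10, a reductase of the lumen, went the other way, from 117 to 50.1 TPM in WT MEFs (−1.23) and from 99.6 to 135 in PERK −/− MEFs (0.44). Fam8a1, a cofactor of HRD1, changed by −0.64 in WT and 0.99 in PERK −/− MEFs.

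**Figure D5:**
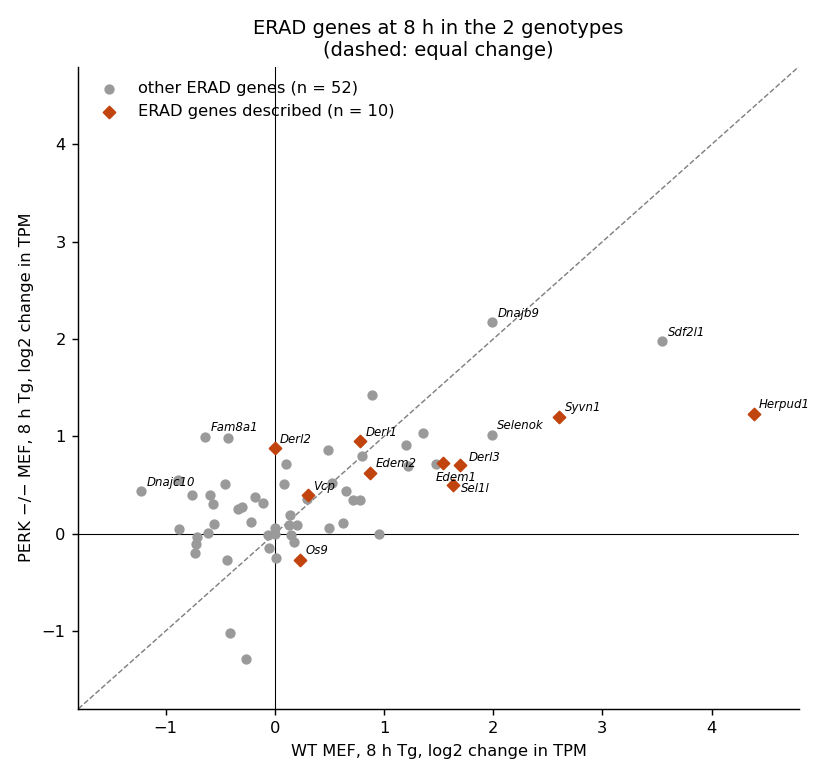
Log2 change in TPM at 8 h of Tg in PERK −/− MEFs (y axis) against WT MEFs (x axis) for the 10 ERAD genes (orange diamonds) and 52 other ERAD genes (grey circles), with a dashed line of equal change. Herpud1 (4.38 and 1.23) and Sdf2l1 (3.55 and 1.98) lie far to the right, Dnajb9 (1.99 and 2.17) lies near the line, and Dnajc10 (−1.23 and 0.44) is at the left edge.

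Related lists set these values in context at 8 h. Of all expressed genes, 6.45% were called higher at 8 h in WT and 3.28% in PERK −/− MEFs. Among 16 chaperones and folding enzymes of the lumen, 5 were called higher in WT MEFs and 3 in PERK −/− MEFs, with medians of 0.30 and 0.76. Hspa5, the BiP gene, changed by 2.40 and 1.41, Creld2 by 1.62 and 1.21, and Manf by 1.55 and 1.34. Of 17 ATF4 and CHOP genes, Atf4 included, 16 were called higher in WT MEFs, with a median of 2.82, and 3 in PERK −/− MEFs, with a median of 0.42. Atf4 itself changed by 4.06 in WT and 0.49 in PERK −/− MEFs, the target Trib3 by 5.47 and 0.31, and Xbp1, the factor of the IRE1 arm, by 2.57 and 1.58. The 26S proteasome, to which ERAD delivers, had 0 of 32 subunits called in either direction in any of the 10 Tg libraries, with medians between −0.18 and 0.10. Of expressed genes, 0.623% to 7.01% were called higher and 2.29% to 8.06% lower in these libraries. The member median of 1.21 in WT MEFs therefore lay between those of the ATF4 and CHOP genes and the chaperones. The median of 0.72 in PERK −/− MEFs lay near that of the chaperones.

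Lastly, for each member the genes with the most alike changes over the 10 Tg libraries were looked up among 5824 genes with a mean of at least 16 TPM, by the root mean square difference of log2 changes. Nearest to Herpud1 was Atf5 (0.58), then Ppp1r15a (0.92) and Sdf2l1 (0.96), while the nearest members came later, with Syvn1 at rank 11 and Sel1l at rank 152. For Syvn1 they were Hmox1 (0.30), Slc3a2 (0.40) and Vps37c (0.47), and for Sel1l they were Hyou1 (0.21), Got1 (0.25) and Lgals3 (0.27). Derl1 was closest to Pdia6 (0.15), Ostc (0.16) and Nr2f2 (0.17), and Derl2 to Ssr3 (0.15), Cers6 (0.18) and Pex2 (0.21). The lectin Edem1 had Jund (0.24), Grb10 (0.24) and Ubald1 (0.26), and Edem2 had Grina (0.26), Gga1 (0.27) and Srebf1 (0.27). Os9 was nearest to Haus8 (0.12), Rnf126 (0.13) and Rnf216 (0.15), Vcp to Sec23ip (0.09), Usp33 (0.09) and Pdhb (0.10), and the sparse Derl3 to Amacr (0.34), Dnpep (0.37) and Bpgm (0.38). Derl3 and Edem2 were too low to be candidates. None of the 10 members had another member among its 3 nearest genes, and the libraries of a line share a control, so such distances are a description only.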

How the data were processed

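The data were 13 libraries of ribosome footprints, with 1 library for each condition. According to the study's methods, footprints of 22 to 34 nt were kept, rRNA and tRNA reads were removed with STAR, and the remainder was mapped by Bowtie2 onto mm10 RefSeq coding sequences lacking 30 nt at either end. RSEM was then run. Tool versions are not given in the sources used here. The deposited expected counts are whole numbers per gene with no scaling. The TPM values deposited by the authors are scaled to each library. Of the 22406 symbols, 25 had become dates and were not restored.

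Analysed were genes whose TPM averaged 2 or more in the MEF (10432) or NIH3T3 (10117) table. TPM below 4 was set to 4, and 2-fold counted as a change. The 2 tables were compared only as values side by side. Intervals are exact conditional ones (95%) of expected counts given the library totals, and of the odds ratio for differences between genotypes. They and the calls were tried on simulated counts that held counting error only, with changes set in genes of at least 16 TPM. Such a trial cannot speak to the spread between cultures or to sparse genes such as Derl3 and Edem2. No test was made between conditions, each of which was 1 library. As background for counts of members, the share of all expressed genes that met the same rule was taken.

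The members, lists and comparisons were chosen with earlier results of these data known. Besides the members, the text names from each list the largest changes in WT MEFs at 8 h (up to 3 in each direction) or the largest differences between genotypes, the 3 genes nearest to each member, and Eif2ak3, Hspa5, Atf4 and Xbp1. The remaining other ERAD genes called in WT MEFs at 8 h are named as a set. Coordinates and GC content came from GENCODE on GRCm38, which held a sequence for 96.1% of expressed MEF genes, and promoters from RefSeq (GRCm38.p6). No stretch of 28 bases in the clipped coding sequences was shared with another gene, except in Os9 (0.207%).

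Alternatives were other floors, filters and thresholds, CPM, TMM factors (edgeR 4.0.16), size factors from DESeq2 1.42.0, thinning of the counts to the shallowest library of a table, and subtraction of a trend on GC content (lowess, fraction 0.3). Scripts ran in R 4.3.3 and in Python 3.11.15 (matplotlib 3.10.9, scipy 1.17.1, pandas 2.3.3, statsmodels 0.14.6, numpy 2.4.6).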

Additional observations from a re-analysis of the deposited data

Results flagged for a closer look

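In 6 cases a member lay above its control in WT MEFs and below its control in PERK −/− MEFs at the same time, with both count intervals clear of 0. At 1, 2 and 8 h, 9.07%, 11.3% and 5.28% of all expressed genes did the same, and in PERK −/− MEFs 35.8% and 32.7% of expressed genes lay above their control at 1 and 2 h, so falls there were common. Whether this exceeds the spread between cultures was not tested, as each value is 1 library. The PERK −/− minus WT difference of the log2 TPM change was −1.49 for Syvn1 at 1 h (1.07 in WT, −0.42 in PERK −/− MEFs) and −2.15 at 2 h (1.93 and −0.22). It was −0.83 for Edem1 at 1 h (0.48 and −0.35) and −1.17 at 2 h (0.91 and −0.27). For Sel1l at 2 h it was −1.03 (0.74 and −0.29), and for Os9 at 8 h −0.50 (0.23 and −0.27). The early ones are in the ligase, its adaptor and a lectin, and in each the WT library was above and the PERK −/− library below its control. That PERK −/− control was itself above the WT control, 2.14-fold for Edem1, 1.90-fold for Syvn1 and 1.43-fold for Sel1l. Compared directly, treated Edem1 levels were within counting error (PERK −/− against WT, log2 counts, 0.05, −0.23 to 0.34, at 1 h and −0.20, −0.47 to 0.09, at 2 h). Syvn1 was lower in PERK −/− MEFs, by −0.55 at 1 h and −1.16 at 2 h, and Sel1l by −0.46 at 2 h, with intervals below 0. With the GC trend removed, Syvn1 in PERK −/− MEFs at 2 h came to 0.18 and Os9 in WT MEFs at 8 h to −0.03, so these cases no longer had opposite signs. The falls at 2 h in PERK −/− MEFs, where the median of expressed genes was −0.11, shrank to −0.0016 for Syvn1 and −0.06 for Sel1l with TMM factors and to −0.03 and −0.09 with DESeq2 size factors. Edem1 came to −0.19 and −0.22 in turn.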

How the results depend on the processing

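The labels carry no replicate numbers, so no fit with a replicate block was made, and with 1 library per condition no replicate could be left out. The number of members called higher in WT MEFs at 1 h (2) was 1 with TMM factors or the GC trend removed, where Syvn1 came to 1.00 and 0.95 (log2). With a floor or pseudocount of 1 TPM the number was 3 at 1 h (7.87% and 5.99% of expressed genes). At 2 h it was 3 as well (8.50% and 6.45%). The added call was Derl3, at 1.58 and 2.00 (log2) at 1 h and 2.29 and 2.56 at 2 h, from 5 and 8 counts. Thinned counts gave 6 at 5 h (7.70%), with Derl1 and Edem2 and without Derl3. The single lower call, Edem2 in PERK −/− MEFs at 1 h, gave way to 0 with a pseudocount of 1, CPM, TMM factors, DESeq2 size factors, thinned counts and the GC trend removed. In PERK −/− MEFs at 5 h, the 3 higher calls were 1 with thinned counts, and Derl3 was at 0 (log2) with CPM, TMM and DESeq2 factors, where both its values lay under the floor. In NIH3T3 cells at 2 h, 1 became 2 with CPM, TMM factors, DESeq2 size factors, thinned counts and the GC trend removed, through Syvn1. In WT MEFs, the 5 higher calls were 4 at 8 h with CPM, TMM and DESeq2 factors and 4 at 5 h with TMM and DESeq2 factors, without Derl3. A 1.5-fold threshold gave 4 higher in WT at 2 h (15.3% of expressed genes), and 7 in both WT and PERK −/− MEFs at 8 h (17.8% and 12.5%). It gave 2 and 5 higher in NIH3T3 cells at 2 and 7 h (12.0% and 16.7%). At 2 h it gave 2 lower in PERK −/− MEFs (18.8%) and 2 lower in NIH3T3 cells (18.2%). A 3-fold threshold gave 1, 2 and 4 higher in WT at 1, 5 and 8 h (1.07%, 1.53% and 1.61%). In PERK −/− MEFs it gave 0 higher at 2, 5 and 8 h (0.105%, 0.527% and 0.479%) and 0 lower at 1 h (0.498%). DESeq2 size factors moved the median of expressed genes from −0.11 to 0.00 in PERK −/− MEFs at 2 h and from −0.13 to −0.01 in NIH3T3 cells at 2 h. No change of 2-fold or more reversed its sign under any alternative. Of 120 differences between genotypes recomputed with CPM, TMM and DESeq2 factors, 113 kept their side of 0. Depth limits Derl3 most, with 0 to 82 counts, and then Edem2, with 39 counts in WT MEFs at 2 h.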
